A study of Mus musculus with 72 samples.

Results

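The 18 suprachiasmatic nucleus (SCN) libraries from mice fed a diet that lacks methionine and choline (MCD) were taken from a set of 72 libraries of SCN and liver by their tissue and diet labels. They were described by the daily rhythm of each gene. The mice were C57BL/6 animals that ate the MCD diet for 11 days, spent 10 days in 12 h of light and 12 h of darkness, and were sampled in constant darkness on day 11. Samples were taken every 4 h at 6 circadian times (CT), from CT0 to CT20, where CT0 is the start of the former light phase and CT12 that of the former dark phase. Each time was represented by 3 libraries, 2 from males and 1 from a female. The 18 SCN libraries of mice on an isocaloric control diet, sampled in the same way, entered the fit and were used for the comparison of diets. The nucleus was cut from stained brain sections with a laser, so each library holds all cells of the cut area. Where a transcript fell, fewer cells of a type and less RNA per cell cannot be told apart. No label says that libraries came from separate cultures or pools beyond naming mice of each sex, so p-values measure the spread between these libraries.

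The SCN is the hypothalamic nucleus that keeps the brain's daily time, receives light from the retina and sets the rhythms of behaviour, hormones and body temperature. In its clock, the activators CLOCK and BMAL1 (gene Arntl) switch on the period and cryptochrome genes, whose proteins then repress the activators, while REV-ERB repressors (Nr1d1, Nr1d2) and ROR activators time the transcription of Arntl. SCN neurons are mostly GABAergic, fire more by day than by night, and signal through peptides such as vasopressin, VIP and prokineticin 2. Methionine feeds the synthesis of S-adenosylmethionine, the cell's methyl donor, and a diet that lacks methionine and choline is widely used to cause fatty liver disease in mice.

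Total counts per MCD library were between 25.3 M and 79.8 M, with a median of 56.0 M (M, mega). Libraries are named here by time and sex, with the 2 males of a time as male 1 and male 2. All 10 SCN neuron markers were present, with a summed level of 2118 to 4554 CPM (each count scaled by its library's total), while markers of neighbouring cells were also present. Hypothalamic genes from outside the SCN (6 of 12 in the table) summed to 111 to 302 CPM, genes of ependyma and choroid plexus (5 of 8) to 89.7 to 299 CPM, tanycyte genes (2 of 6) to 84.2 to 216 CPM and genes of glutamatergic neurons (2 of 6) to 2.42 to 11.7 CPM. The female library of CT4 stood apart: 13.1% of its genes lay more than 1 log2 unit from their median over the MCD libraries, against at most 6.30% in any other MCD library. It also had the fewest counts and the highest summed level of 12 heart muscle genes, 476 CPM against a median of 101 CPM over the 18 libraries, a list chosen after the data were seen, and the highest sums of the outside-SCN and ependymal genes. Counts without this library are given beside the results below that it moved most. Xist, transcribed in females, separated the sexes without exception (470 CPM or more in females and 21.0 CPM or less in males, over both diets).

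A 24 h rhythm was called for 2544 of 15759 genes tested (16.1%), from edgeR's quasi-likelihood test of a cosine and a sine term with a 24 h period across the 6 time means, at an adjusted p under 0.05. At an unadjusted p under 0.05 there were 4752 genes. The range, the distance from trough to peak of the fitted curve, had a median of 0.53 on the log2 scale over called genes and 0.31 over all genes tested. It was at least 1, which is a change of 2 times, for 380 called genes and at least 2 for 80. The standard error of the peak time had a median of 0.84 h over called genes. For 2446 of the 2544, the 3 libraries of the highest time lay above all 3 of the lowest time. Both times were picked from these same values in genes already called, so this count is no separate support. It was not made over all genes. Statements below that the high and low libraries of a gene did not overlap describe its values and add no support for its rhythm.

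Called genes peaked in 2 waves, one in the second part of the subjective day and one in the middle to late subjective night. The 4 h window centred on CT8 held 630 called genes (24.8%), and that centred on CT20 held 597 (23.5%). The windows centred on CT0 and CT12, the former times of lights on and lights off, held 260 (10.2%) and 311 (12.2%). Over all genes tested, called or not, no window held more than 18.7% of the fitted peaks, which is the base these shares are read against. Among genes with a range of at least 1, the fullest windows were CT20 with 94 genes and CT4 with 89, while CT8 held 76. In all, 1279 called genes (50.3%) peaked between CT12 and CT24.

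**Figure D1:**
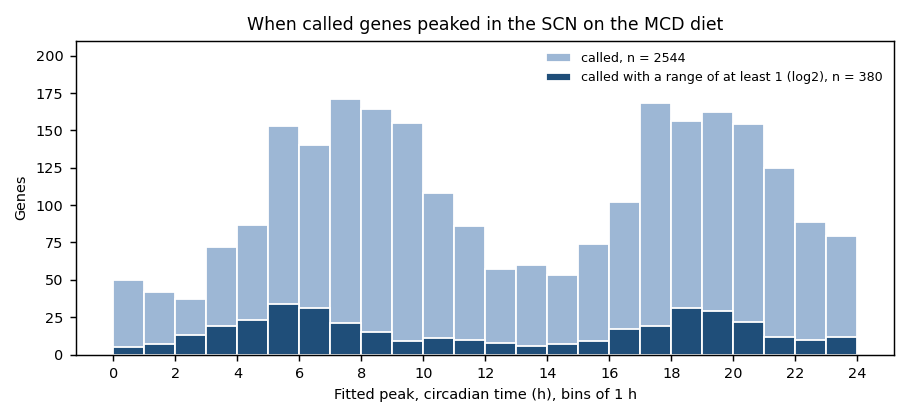
Number of called genes (vertical axis) by fitted peak time in bins of circadian time in hours (horizontal axis); the dark bars are the 380 genes with a range of at least 1 on the log2 scale, out of 2544 called (light bars). The bars form one hump around CT8 and another around CT20, with few genes near CT2 and CT14.

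The clock genes were nearly all rhythmic on the MCD diet, and their peaks followed one another from early day to the middle of the night. Of the clock repressors 6 of 6 were called and of the period and cryptochrome genes 5 of 5. Of the PAR bZIP factors 4 of 4 were called and of the clock activators 5 of 7, against 16.1% of all genes. Median ranges over the measured members were 1.68, 1.39, 1.41 and 0.59. First came Nr1d1, the REV-ERB alpha repressor, at 270, 290 and 334 CPM in the 3 CT0 libraries and 77.6, 71.9 and 65.5 CPM in those of CT12. All CT0 libraries lay above all CT12 libraries, and the fitted curve had a range of 2.30 ± 0.14 (SE, n = 18 as for all ranges) with a peak at CT2.20 ± 0.24 h (adjusted p = 8.08e-15). The other repressors Bhlhe41 (range 1.59, CT4.08), Bhlhe40 (0.77, CT4.89), Ciart (2.87, CT5.19) and Nr1d2 (1.78, CT5.97) followed within 4 h, and Cipc (0.44, CT10.4) came last.

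Per1, a period gene that light induces, was next, together with Dbp, the PAR bZIP activator that reads out CLOCK and BMAL1. Per1 was at 166, 147 and 125 CPM at CT4 and at 33.1, 27.7 and 31.3 CPM at CT16 (range 2.37 ± 0.12, peak CT5.03 ± 0.19 h, adjusted p = 1.17e-12). Dbp was at 316, 360 and 310 CPM at CT4 and 64.5, 54.5 and 54.7 CPM at CT16, with a peak at CT4.96 ± 0.18 h. In both genes the high and low libraries did not overlap. The related factors Hlf and Tef peaked later, at CT7.18 and CT7.48, with ranges of 1.23 and 1.24.

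Per2 peaked at CT8.59 ± 0.15 h with the largest range of the clock genes, 3.33 ± 0.13 (adjusted p = 5.88e-14). Its levels were 180, 158 and 136 CPM at CT12 and 17.6, 19.2 and 23.3 CPM at CT20, and they fell to 28.3, 27.1 and 29.3 CPM between CT12 and CT16 alone. Per3 (range 1.39, CT9.21) and Cry1 (1.32, CT9.86) came after it. Fbxl21, an F-box protein that acts on cryptochromes, had a range of 2.57 ± 0.12 with a peak at CT8.40. It was 1 of 3 called genes among 10 for clock protein turnover (30%, against 16.1% of all genes). Cry2, with a range of 0.29, was near the threshold (adjusted p = 0.0495) and lost its call in 29 of the 36 fits that left out 1 library, with adjusted p up to 0.22. Cipc, a repressor that binds CLOCK, lost its call in 10 of 36 (main adjusted p = 0.0417, up to 0.0927).

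Of the activators, Arntl and Npas2 peaked in the subjective night and the others by day. Arntl was at 44.8, 36.6 and 41.5 CPM at CT4, at 98.8, 77.6 and 56.8 CPM at CT12 and at 77.7, 60.0 and 81.8 CPM at CT16 (range 0.94 ± 0.14, peak CT15.6 ± 0.57 h, adjusted p = 5.49e-06). Nfil3, the bZIP repressor that competes with Dbp, peaked at CT17.3 ± 0.37 h (range 1.59), and Npas2, a relative of CLOCK, at CT17.7 ± 0.36 h (range 1.41). Clock itself had a range of 0.59 with a peak at CT11.5, and its adjusted p of 0.0196 rose to 0.10 without the female library of CT0. Rora and Rorb, which act on Arntl, peaked by day, at CT7.32 (range 1.68) and CT4.93 (range 0.59). Arntl2, a relative of Arntl with a mean under 10 CPM, was not called (adjusted p = 0.90).

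**Figure D2:**
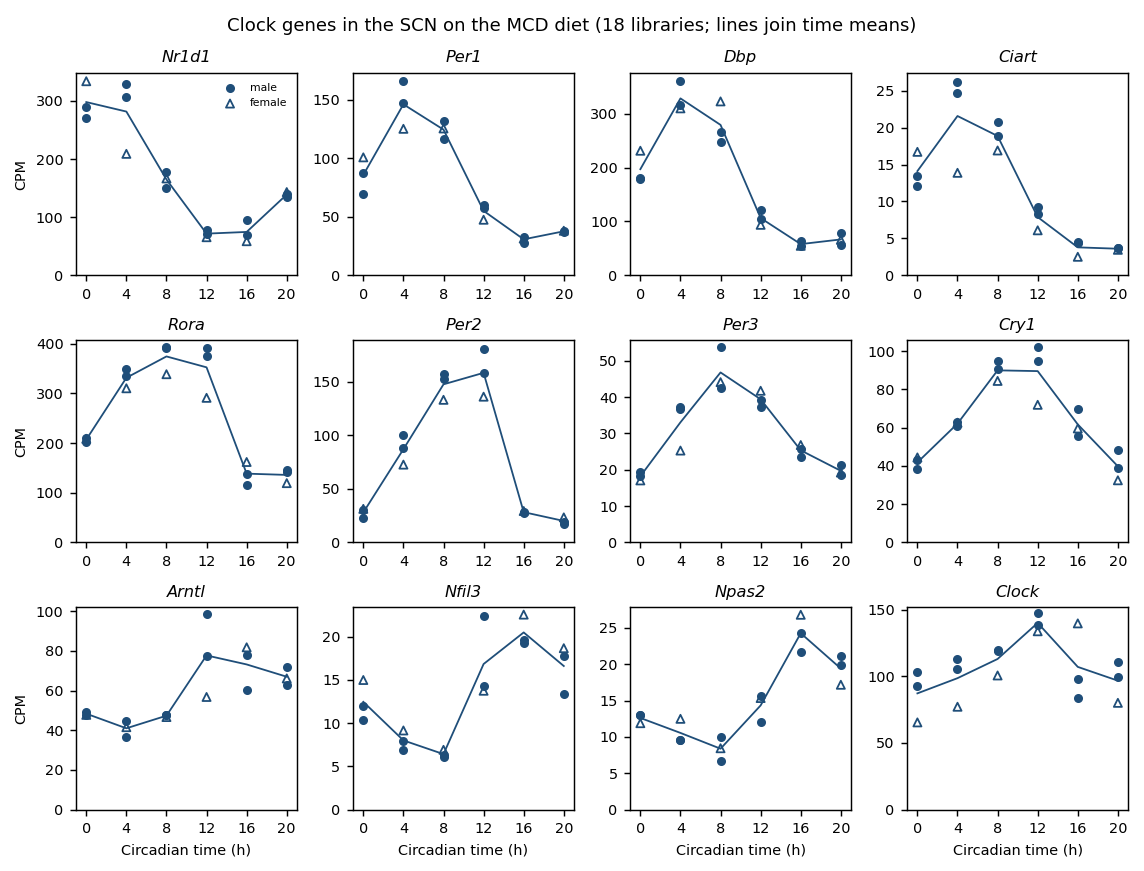
Level in CPM of 12 clock genes against circadian time in hours in the 18 MCD libraries; filled circles are males, open triangles females, and the line joins the means of the 3 libraries of a time. The upper row holds genes that peaked early in the day (Nr1d1, CT2.20), and in the lower row Arntl, Nfil3 and Npas2 (CT17.7) are highest from CT12 to CT20.

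Short DNA motifs bound by clock proteins stand before several of these genes. For 11188 of the 15759 genes a promoter was found by symbol in the RefSeq table of build GRCm38.p6, 14356 promoters in all, and the 250 bases before each start were searched on both strands. The motifs were the E-box CACGTG (bound by CLOCK and BMAL1), the D-box TTATGNAA (bound by Dbp and its relatives), the RORE ANTNGGTCA (bound by REV-ERB and ROR proteins), the CRE TGACGTCA (bound by CREB, which cAMP activates) and the heat shock element pair GAANNTTC, and none of these contains another. A match is a description, and no match says only that the letters are not in this window. The 6 promoters shown belong to genes whose rhythms are described here, 2 clock genes of the day, 2 peptides of the day, a clock gene of the night and a heat shock gene, with matches in capitals:

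Ciart, chr3:95882229-95882478, minus strand: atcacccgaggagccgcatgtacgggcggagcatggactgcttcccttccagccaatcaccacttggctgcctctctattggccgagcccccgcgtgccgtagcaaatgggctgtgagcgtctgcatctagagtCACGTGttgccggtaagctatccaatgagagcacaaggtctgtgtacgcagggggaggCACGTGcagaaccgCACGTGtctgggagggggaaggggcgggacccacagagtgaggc
Per3, chr4:151044666-151044915, minus strand: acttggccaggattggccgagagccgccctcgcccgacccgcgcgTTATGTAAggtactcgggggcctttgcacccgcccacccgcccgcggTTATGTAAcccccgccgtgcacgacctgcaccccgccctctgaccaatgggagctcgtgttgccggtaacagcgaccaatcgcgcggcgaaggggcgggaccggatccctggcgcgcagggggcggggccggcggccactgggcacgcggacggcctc
Prok2, chr6:99726393-99726642, minus strand: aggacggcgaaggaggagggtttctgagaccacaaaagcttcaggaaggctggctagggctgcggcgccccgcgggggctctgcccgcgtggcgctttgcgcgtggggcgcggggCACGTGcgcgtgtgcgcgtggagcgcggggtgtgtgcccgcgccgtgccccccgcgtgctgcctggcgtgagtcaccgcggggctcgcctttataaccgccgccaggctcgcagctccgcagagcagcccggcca
Avp, chr2:130582589-130582838, minus strand: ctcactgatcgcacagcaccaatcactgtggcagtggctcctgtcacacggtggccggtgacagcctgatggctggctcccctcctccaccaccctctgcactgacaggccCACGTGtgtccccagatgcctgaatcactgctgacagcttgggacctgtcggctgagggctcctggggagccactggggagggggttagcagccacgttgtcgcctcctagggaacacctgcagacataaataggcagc
Nfil3, chr13:52981040-52981289, minus strand: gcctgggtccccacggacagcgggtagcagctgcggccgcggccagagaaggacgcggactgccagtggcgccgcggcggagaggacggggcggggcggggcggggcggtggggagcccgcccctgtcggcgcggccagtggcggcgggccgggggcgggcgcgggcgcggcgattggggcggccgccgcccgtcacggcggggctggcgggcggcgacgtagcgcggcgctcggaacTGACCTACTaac
Hspa1b, chr17:34959239-34959488, minus strand: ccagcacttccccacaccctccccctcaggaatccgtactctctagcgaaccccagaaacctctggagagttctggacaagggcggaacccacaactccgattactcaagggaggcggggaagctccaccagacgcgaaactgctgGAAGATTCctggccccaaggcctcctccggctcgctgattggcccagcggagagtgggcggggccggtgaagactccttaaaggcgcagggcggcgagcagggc

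Ciart had 3 E-boxes, Prok2 and Avp 1 each, Per3 had 2 D-boxes, and Nfil3, which peaked in the night, had a RORE close to its start. Hspa1b had 1 heat shock element pair. An E-box was present in 8.05% of all promoters of tested genes, and in 9.56%, 12.2%, 13.2%, 12.0%, 6.36% and 6.50% of the promoters of called genes in the windows of CT0, CT4, CT8, CT12, CT16 and CT20. For called genes with a range of at least 1, these shares were 7.69%, 14.5%, 12.9%, 18.4%, 11.8% and 9.41%. All but that of CT0 lay above the share over all promoters. They rest on few promoters: 2 of 26, 10 of 69, 8 of 62, 7 of 38, 6 of 51 and 8 of 85. A gene with several promoters counts more than once, as at CT12, where the 38 promoters belong to 24 genes. A CRE was present in 2.48% of all promoters, and in 0.37%, 4.82%, 6.22%, 1.95%, 2.93% and 0.83% of those of called genes in the 6 windows in the same order. A D-box was in 1.87% of all promoters and in 0.74% to 1.98% by window, and a RORE in 1.56% and in 0.65% to 2.57%. Among 26 promoters of 19 genes of the 4 clock lists 7 held an E-box (26.9%), 2 a D-box and 1 a RORE, and the promoters printed were chosen because they hold a match. The heat shock element pair was in 4.84% of all promoters and in 8 of 29 promoters of 20 heat shock and chaperone genes (27.6%). These shares were not tested.

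Of 15 neuropeptide genes 6 were called (40%, against 16.1% of all genes), 5 with a peak by day and 1 late at night. The median range over the 15 was 0.72. Prok2 encodes prokineticin 2, an SCN output signal that suppresses activity by day. It was at 89.3, 116 and 104 CPM at CT4 and at 1.09, 0.975 and 0.669 CPM at CT16, and had the largest range of all called genes (7.28 ± 0.33, peak CT4.37 ± 0.17 h, adjusted p = 1.68e-09). Its CT4 libraries lay above those of all other times. Avp, vasopressin of the SCN shell, was at 826, 938 and 1373 CPM at CT8 and 146, 251 and 178 CPM at CT20 (range 2.48 ± 0.26, peak CT6.47 ± 0.40 h). C1ql3, a secreted synaptic organizer, peaked at CT8.12 with a range of 2.05 ± 0.17.

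Vip, the peptide of the SCN core that couples its cells, was not called (range 0.26 ± 0.17, adjusted p = 0.38). Its 18 libraries lay between 909 and 1572 CPM, and those of the highest and lowest times overlapped. Nms, neuromedin S, had a range of 0.72 ± 0.18 with a peak at CT2.87. Nmu, neuromedin U, was at 3.09, 2.39 and 5.25 CPM at CT8 and had no count in any library of CT0 and CT20 (adjusted p = 0.000719). Cck, cholecystokinin, peaked in the other part of the cycle, at CT22.0 ± 0.86 h (range 1.10 ± 0.25). Vip, Nms and Cck lie outside the rule for named genes and were chosen after their values were seen.

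Among 11 genes of peptide processing, 4 were called (36.4%, against 16.1% of all genes). These 4 peaked close to the day peptides, from CT5.84 to CT7.61. Vgf, whose product is cut into secreted peptides, was at 761, 791 and 622 CPM at CT4 and 163, 168 and 189 CPM at CT20 (range 2.07 ± 0.21, adjusted p = 2.05e-10). Pcsk1, a prohormone convertase, peaked at CT7.27 (range 1.49), and Chga, a granin of secretory granules, at CT6.99 (range 1.29). Pam, which amidates peptides, had a range of 0.51. Of 16 neuropeptide receptor genes 5 were called (31.3%, against 16.1% of all genes). Vipr2, the VIP receptor, was at 302, 367 and 269 CPM at CT20 and 179, 181 and 159 CPM at CT4 (range 0.89 ± 0.11, peak CT18.9 ± 0.45 h), without overlap. Avpr1a, a vasopressin receptor, peaked at CT17.6 with a range of 1.58 ± 0.18, while Cckar, a cholecystokinin receptor, peaked by day at CT7.55 (range 1.56). The count of 5 fell to 3 without any 1 of 6 MCD libraries (CT4 male 2 and female, CT8 males 1 and 2, CT16 female, CT20 male 1). Of 10 transcription factors that define SCN neurons 5 were called (50%, against 16.1% of all genes), none with a range of 1 or more. Their count was 3 without the female library of CT0 or of CT12. Dlx2, a homeobox factor of GABAergic neurons, peaked at CT22.8 (range 0.75).

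Among 25 genes of G protein and cAMP signalling, 13 were called (52%, against 16.1% of all genes). The called genes split into a day and a night set, and the median range over the 25 was 0.50. Rgs16, a regulator of G protein signalling that shapes the morning cAMP of the SCN, was at 810, 988 and 622 CPM at CT4 and 166, 143 and 144 CPM at CT16 (range 2.51 ± 0.15, peak CT4.38 ± 0.23 h, adjusted p = 4.90e-15, the lowest of all genes). Rasd1, a small G protein that modulates the response of the clock to light, was at 526, 369 and 279 CPM at CT12 and 75.5, 81.0 and 123 CPM at CT4, with a peak at CT15.6 ± 0.36 h (range 2.27 ± 0.21). In both genes the high and low libraries did not overlap. Adcy1, a calmodulin-regulated adenylyl cyclase named outside the rule, peaked at CT17.6 (range 1.00), and the phosphodiesterase Pde4d at CT5.36 (range 1.65).

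Immediate-early genes, which neurons switch on within minutes of activity, peaked early in the subjective day. Of 22 measured, 15 were called (68.2%, against 16.1% of all genes), and 12 of these peaked between CT0.96 and CT6.08. The median range over the 22 was 0.89. Fos was at 50.0, 46.2 and 37.3 CPM at CT0 and 10.9, 13.6 and 7.92 CPM at CT16 (range 2.02 ± 0.30, peak CT3.78 ± 0.57 h). Junb (range 2.16, CT2.18), Nr4a1 (2.55, CT2.62), Fosl2 (2.65, CT2.95), Dusp1 (2.03, CT3.07) and the kinase gene Sik1 (1.88, CT3.33) peaked within 2 h of it. Dusp4, a MAP kinase phosphatase, had the largest range, 4.67 ± 0.30, with a peak at CT4.82; it was at 67.0, 69.1 and 33.0 CPM at CT4 and 3.33, 4.45 and 3.27 CPM at CT16. Fos, Junb, Dusp1 and Sik1 were chosen after their values were seen.

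Some immediate-early genes did not follow a 24 h cosine. Only 5 of 15759 genes (0.0317%) departed from one by the 12 h and 8 h components in edgeR at an adjusted p under 0.05 (722 at an unadjusted p under 0.05, 36 by DESeq2), and all 5 also had a called 24 h component. That call was lost for Npas4 with limma (adjusted p = 0.094), and for Npas4 and Jun when the 24 h terms were fitted directly (0.12 and 0.28). It was also lost for both without the libraries of replicate number 1 (0.083 and 0.11), and for Npas4 without those of number 2 (0.13). The 3 with the smallest p were Jun, Nr4a3 and Npas4. Npas4, a factor that neurons make on calcium influx, was at 46.3, 29.6 and 36 CPM at CT12 and at 9.10 CPM or less in all 15 libraries of the other times (adjusted p = 0.00216). Jun, a subunit of AP-1, was at 127, 83.8 and 87.4 CPM at CT12 and between 29.7 and 57.9 CPM elsewhere (adjusted p = 4.88e-05). For both genes the libraries of CT12, the former time of lights off, lay above all others, and the fitted 24 h peaks describe them poorly. Nr4a3, an orphan nuclear receptor, had 2 maxima, with 93.2, 112 and 74.4 CPM at CT0, 66.1, 51.2 and 36.9 CPM at CT4 and 59.6, 65.8 and 75.4 CPM at CT8 (adjusted p = 0.000399). Its CT4 and CT8 libraries overlapped. These 3 calls held without each 1 of the 36 libraries in turn. All 3 were lost without the libraries of replicate number 1 (male 1 of each time; Jun and Nr4a3 at 0.082), and Nr4a3 and Npas4 also without those of number 2. The count was 8 without the female library of CT4, male 1 of CT20 or male 2 of CT20. With limma, Npas4 had no call (adjusted p for departure 0.24).

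**Figure D3:**
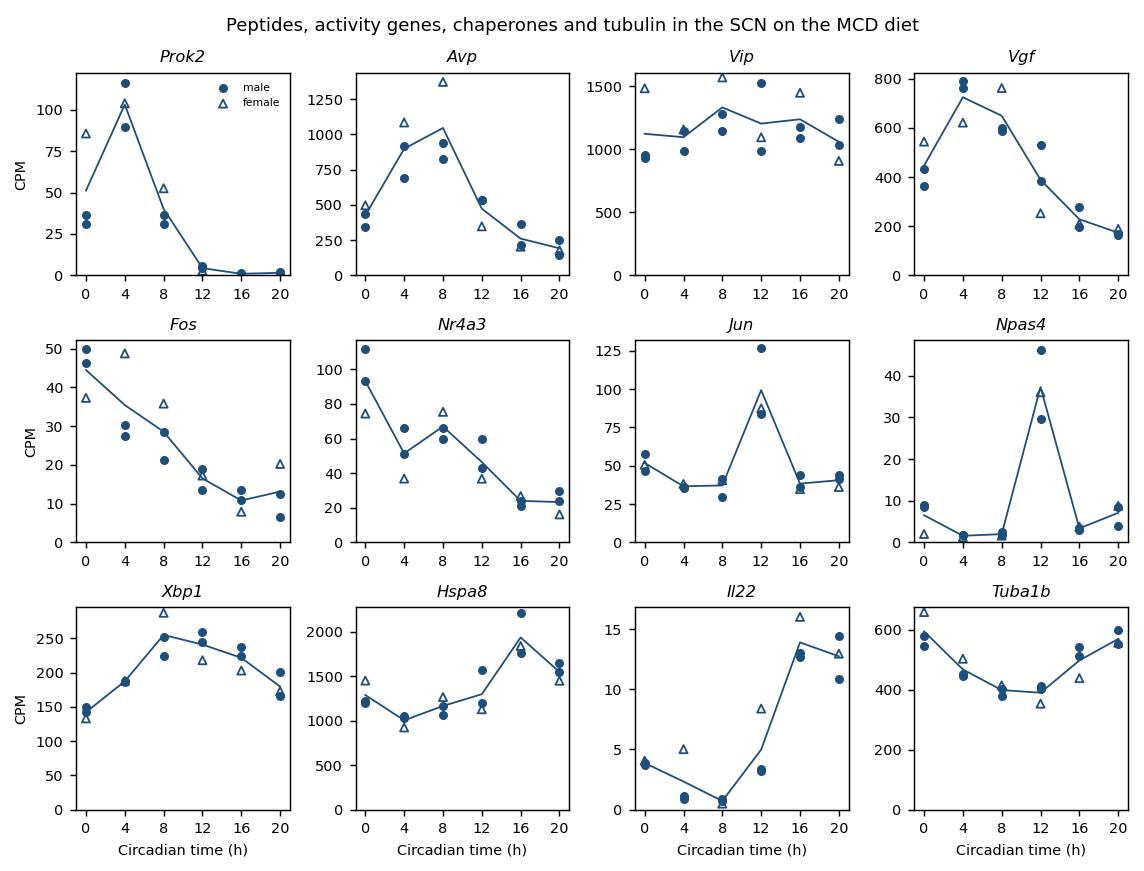
Level in CPM of 12 genes of peptides, neuronal activity, the endoplasmic reticulum, chaperones and the cytoskeleton against circadian time in hours in the 18 MCD libraries; filled circles are males, open triangles females, and lines join time means. Npas4 and Jun stand out at CT12 alone, the Vip libraries of all times overlap, and Hspa8 and Il22 are highest at CT16.

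Ion channel and transmitter genes were called in 19.4% to 30.4% of cases, list by list, beside 16.1% of all genes. Of 39 potassium channel genes 10 were called (25.6%), and 7 of these peaked between CT14.3 and CT21.7. The smallest p was that of Kcnc2, a Kv3 channel of fast-firing neurons that peaked by day, at 126, 149 and 138 CPM at CT8 and 61.1, 46.0 and 54.9 CPM at CT20 (range 1.45 ± 0.09, peak CT8.71 ± 0.25 h, adjusted p = 8.16e-12). Its CT8 and CT20 libraries did not overlap. Kcnj9, a G protein-gated channel named outside the rule, peaked at CT18.7 (range 0.57). The count of 10 was 6 without the female library of CT4 and 6 without that of CT16. Of 31 sodium, calcium and HCN channel genes 6 were called, and 3 without male 1 of CT8 or male 2 of CT12, but 11 by DESeq2 and 11 with the heart muscle term. Hcn4, a pacemaker channel, peaked at CT20.1 ± 0.42 h with a range of 0.69 ± 0.08.

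Of 23 GABA genes 7 were called, and 4 without male 1 of CT8 or male 2 of CT20. Gad1, which makes GABA, had a range of 0.45 with a peak at CT4.03 and overlapping libraries at its highest and lowest times, and Gabra2, a receptor subunit, one of 0.65 with a peak at CT17.9. Of 27 glutamate genes 6 were called. Glul, glutamine synthetase of astrocytes, was at 1582, 1649 and 2094 CPM at CT12 and 1175, 1187 and 1131 CPM at CT0 (range 0.66 ± 0.09, peak CT14.5 ± 0.54 h). These did not overlap. Of 27 synaptic vesicle genes 6 were called, among them the synaptotagmins Syt5 (CT6.38, range 0.80) and Syt4 (CT8.16, range 0.66), whose peaks lay near those of the peptide processing genes.

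Called genes for the transport and folding of proteins peaked from the late day into the night, with overlap between the lists. Of genes for transport into the endoplasmic reticulum and through the Golgi 11 of 42 were called (26.2%, against 16.1% of all genes). The peaks of the 11 lay from CT6.95 to CT12.7, and none had a range above 1. Sec61a1, a subunit of the translocation channel, peaked at CT8.63 (range 0.48), and Srpr, the receptor of the signal recognition particle, at CT8.26 (range 0.51). Of genes of the unfolded protein response 14 of 21 were called (66.7%, against 16.1% of all genes), with peaks from CT7.46 to CT17.0. Xbp1, a transcription factor of that response, was at 225, 253 and 287 CPM at CT8 and 143, 150 and 133 CPM at CT0 (range 0.77 ± 0.08, peak CT11.2 ± 0.41 h). Herpud1, which takes part in the removal of misfolded proteins, peaked at CT7.46 (range 0.84), Creld2 at CT13.7 (0.69) and Sdf2l1 at CT15.7 (1.19). The chaperones Hspa5 (BiP; CT13.7, range 0.58) and Manf (CT13.3, range 0.55) were named outside the rule.

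Cytosolic heat shock proteins and chaperones peaked in the night. Of 26 genes 21 were called (80.8%, against 16.1% of all genes), with a median range of 0.57 over the 26, and all 21 peaked between CT13.5 and CT19.6. Hspa8, the constitutive HSP70, was at 2206, 1758 and 1838 CPM at CT16 and 1032, 1054 and 922 CPM at CT4 (range 0.80 ± 0.11, peak CT17.1 ± 0.52 h, adjusted p = 2.42e-05). Hsph1, an HSP110 that works with it, was at 415, 414 and 408 CPM at CT16 and 205, 213 and 149 CPM at CT4 (range 1.05 ± 0.12, peak CT17.4). In both, all CT16 libraries lay above all CT4 libraries. Hsp90aa1 (0.80, CT17.8), its cochaperone Stip1 (0.93, CT16.9) and Dnajb1 (1.04, CT14.6), named like Hspa8 outside the rule, had peaks within 3 h of these. Hspa1b, an inducible HSP70, had a larger range but scattered values, 37.3, 7.78 and 7.75 CPM at CT20 and 3.80, 4.41 and 2.86 CPM at CT8 (range 1.98 ± 0.49, peak CT18.2). Its reads may be shared with the near-identical Hspa1a. Between 19 and 22 of the 26 were called when each 1 of the 36 libraries was left out.

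**Figure D4:**
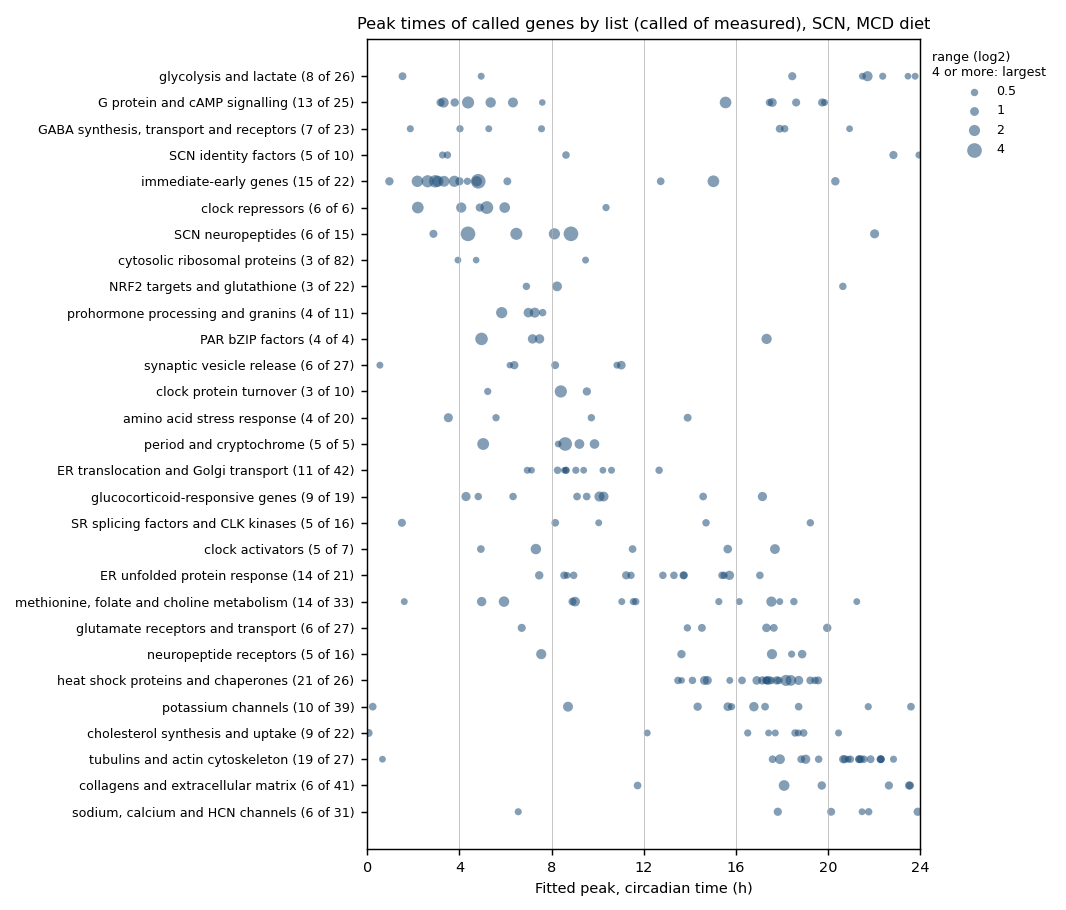
Fitted peak time in hours of circadian time of each called gene (points) by gene list (rows, with the number called of the number measured), for lists with at least 3 called genes; larger points have a larger range on the log2 scale, with ranges of 4 or more drawn at 1 size. Of 15 immediate-early genes 12 lie from CT0.96 to CT6.08, peptide processing lies near CT7, chaperones lie between CT13.5 and CT19.6, and tubulin and actin genes lie from CT17.6 to CT0.66.

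The 2 RNA-binding proteins that cold induces were both called. Rbm3 was at 81.2, 64.3 and 105 CPM at CT4 and 31.2, 29.5 and 19.0 CPM at CT16 (range 1.79 ± 0.32, peak CT6.26 ± 0.68 h), and Cirbp had a range of 0.85 ± 0.20 with a peak at CT3.51. The heat shock genes thus peaked in the part of the cycle opposite to both. Of 16 SR splicing factor and CLK kinase genes 5 were called (31.3%, against 16.1% of all genes), with peaks spread over the cycle.

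Cytoskeletal genes peaked at the end of the subjective night. Of 27 tubulin, actin and related genes 19 were called (70.4%, against 16.1% of all genes), with a median range of 0.55 over the 27. All 10 tubulin genes were called, and 9 of them peaked between CT20.7 and CT22.3. Tuba1b was at 548, 579 and 660 CPM at CT0 and 412, 404 and 354 CPM at CT12 (range 0.65 ± 0.08, peak CT21.8 ± 0.46 h, adjusted p = 2.87e-06), without overlap. Tubb3, the neuronal beta tubulin, peaked at CT20.7 (range 0.77), Tubb5 at CT22.3 (0.71) and Tubb2a at CT21.3 (0.66). Reads of tubulins can be shared among near-identical copies, so that single members are uncertain. The neurofilament genes Nefm (CT17.9, range 1.39) and Nefh (CT19.0, range 1.19) and Actb (CT18.8, range 0.63) came earlier. Tuba1b, Tubb2a and Actb lie outside the naming rule. The summed level of the heart muscle genes had time means from 58.0 CPM at CT12 to 192 CPM at CT4, where 1 library was at 476 CPM, and a fitted log2 curve with a range of 1.27 ± 0.47 and a peak at CT22.2. With that sum as a further term 17 of the 27 were called.

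Of 41 collagen and matrix genes 6 were called (14.6%, against 16.1% of all genes), and 3 with the heart muscle sum as a term. Ncan, neurocan of the perineuronal matrix, peaked at CT23.5 ± 0.30 h (range 0.75 ± 0.06), and Col4a2, of basement membranes, at CT22.6 (range 0.76).

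Among metabolic genes, those of methionine, folate and choline, which the diet addresses, were called in 14 of 33 cases (42.4%, against 16.1% of all genes; median range over the 33, 0.34), with peaks spread over the whole cycle. Without the female library of CT0 the count was 9. Mat2a, which makes S-adenosylmethionine, was at 296, 271 and 320 CPM at CT16 and 98.7, 126 and 109 CPM at CT8 (range 1.57 ± 0.16, peak CT17.5 ± 0.39 h, adjusted p = 7.22e-11), without overlap. Odc1, which starts polyamine synthesis, was at 231, 257 and 218 CPM at CT4 and 122, 99.5 and 97.5 CPM at CT16 (range 1.22 ± 0.10, peak CT4.97). Mthfd1l, an enzyme of mitochondrial folate metabolism, peaked at CT9.02 (range 1.34).

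Genes that glucocorticoids induce were called in 9 of 19 cases (47.4%, against 16.1% of all genes), with a median range of 0.60. The count was 6 to 10 over the fits that left out 1 library. Tsc22d3 (GILZ) was at 96.3, 95.1 and 110 CPM at CT12 and 35.8, 33.4 and 35.9 CPM at CT0 (range 1.54 ± 0.09, peak CT10.1 ± 0.23 h, adjusted p = 2.29e-10). Sgk1, a kinase, peaked at CT10.3 (range 1.40) and Klf9, named outside the rule, at CT9.11 (0.59). Mt2, a metallothionein, peaked earlier, at CT4.29 (1.13), and Cdkn1a, a cell cycle inhibitor, later, at CT17.2 (1.16). Txnip, a thioredoxin inhibitor that responds to glucose, was at 64.4, 47.0 and 45.9 CPM at CT4 and 19.7, 15.2 and 29.5 CPM at CT0 (range 1.38 ± 0.21, peak CT8.24). It stood in the list of NRF2 targets and glutathione genes, of which 3 of 22 were called (13.6%, against 16.1% of all genes). Of 20 genes of the amino acid stress response 4 were called (20.0%, against 16.1% of all genes). Sesn2, a leucine sensor, peaked at CT3.52 (range 1.09 ± 0.13).

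Of 22 cholesterol genes 9 were called (40.9%, against 16.1% of all genes), none with a range of 1 or more. Between CT16.5 and CT20.5 lay the peaks of 7 of the 9. Over the fits that left out 1 library the count was 6 to 10. Fdft1, squalene synthase, peaked at CT18.9 (range 0.57), Msmo1, named outside the rule, at CT17.7 (0.35), and Nsdhl at CT0.06 (0.68). Of 26 glycolysis and lactate genes 8 were called (30.8%, against 16.1% of all genes), and 7 of them peaked between CT18 and CT2. This count was 6 to 11 over the fits that left out 1 library. Pfkp, the platelet-type phosphofructokinase, had a range of 0.75 ± 0.10 with a peak at CT18.4.

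Genes of the machinery of protein and energy supply are set beside the 16.1% called over all genes. None of 82 nuclear-encoded respiratory chain genes was called by edgeR (7 at an unadjusted p under 0.05, 3 by DESeq2, 2 by limma and 3 with the heart muscle term), and none of 30 mitochondrially encoded genes (2 unadjusted, 1 by each other tool). Without the female library of CT4, 1 of each was called, and over all fits that left out 1 library the counts reached 2 and 1. None of 36 proteasome genes was called (2 unadjusted, 1 by DESeq2, 0 by limma, 1 with the heart muscle term and 1 in 5 of the fits that left out 1 library). Atp5b, the catalytic beta subunit of ATP synthase, had a range of 0.19 ± 0.06 and mt-Co1, a subunit of cytochrome c oxidase, one of 0.03 ± 0.14. Of 82 cytosolic ribosomal protein genes 3 were called (3.66%) and of 20 cytosolic aminoacyl-tRNA synthetases 2 (10.0%). With the heart muscle sum as a term, 16 of the 82 ribosomal genes were called, so that this count depended on that term. It was 1 in 23 of the fits that left out 1 library, that without the female of CT4 among them, and 5 without male 1 of CT4. The count of synthetases was 1 in 15 of these fits.

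Apart from the lists, the rule took the 4 called genes of largest range in each window. Around CT0 they included Fabp7, a fatty acid-binding protein of astrocytes, at 87.6, 97.7 and 111 CPM at CT0 and 12.0, 18.3 and 13.1 CPM at CT12 (range 2.63 ± 0.16, peak CT1.24 ± 0.23 h). Tmem51, a membrane protein, fell from 90.4, 90.4 and 99.7 CPM at CT0 to 25.2, 21.3 and 21.3 CPM at CT12 (range 1.95 ± 0.11, peak CT23.4). Around CT4 Rasl11b, a small GTPase, was at 244, 296 and 222 CPM at CT4 and 23.0, 19.8 and 16.4 CPM at CT12 (range 4.30 ± 0.16, peak CT3.44 ± 0.14 h, adjusted p = 8.32e-15). In all 3 genes the high and low libraries did not overlap.

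Around CT20 the list held Il22, a cytokine gene, at 12.7, 13.0 and 16.0 CPM at CT16 and 0.723, 0.917 and 0.493 CPM at CT8 (range 4.12 ± 0.41, peak CT18.2 ± 0.38 h, adjusted p = 3.32e-08). A near-identical copy, Iltifb, lies in the mouse genome, so these reads may stem from either. Ankrd63, an ankyrin repeat gene, was at 22.2, 18.2 and 15.1 CPM at CT20 and 1.04, 2.28 and 2.11 CPM at CT8 (range 3.71 ± 0.28, peak CT20.8). Baiap2l2, an actin-binding protein, peaked at CT22.0 with a range of 3.99 ± 0.39. Neither gene overlapped between its high and low time. In the windows of CT8 and CT12 all genes taken had few CPM and libraries at 0 counts (Nmu, Adgrf4, Crybg1, 4933440N22Rik, Nat8f6, A1cf, Gm9801, Dhrs9). Their fitted ranges depend on the constant added before the logarithm and are not given. Gm45140, of the window of CT20, was at 0.134 to 28.2 CPM at CT16 and had 3 MCD libraries at 0 counts. Around CT16, next to Rasd1 and Npas4, the protocadherin gene Pcdhac1 had a range of 3.58, which fell to 2.26 without the female library of CT4, where its call was lost (adjusted p = 0.059). Pcdhac1 had 1 MCD library at 0 counts, and its exons overlap 12 genes on the same strand in GENCODE M21. Akr1c21, an aldo-keto reductase, led the window of CT0 and was at 3.59, 2.79 and 4.16 CPM at CT0 with no count in any library of CT12.

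Some markers of other cell types were called, beside 16.1% of all genes. Astrocyte markers summed to 2701 to 3701 CPM (4 of 10 called) and oligodendrocyte markers to 1279 to 2580 CPM (2 of 10), with fitted ranges of the sums of 0.08 ± 0.07 and 0.08 ± 0.16. The sums of oligodendrocyte precursor markers (2 of 6), tanycyte markers (1 of 2 in the table) and pericyte markers (1 of 7) had fitted ranges of 0.26 ± 0.09, 0.57 ± 0.15 and 0.37 ± 0.14. For the sums of microglia, ependyma and choroid plexus, and SCN neuron markers the fitted ranges were 0.26 ± 0.10, 0.54 ± 0.27 and 0.74 ± 0.14. The pericyte count was 0 in 10 and 2 in 2 of the fits that left out 1 library, and the tanycyte count was 0 without the female of CT0. Microglia markers lay at 205 to 347 CPM (0 of 10 by edgeR, 4 at an unadjusted p under 0.05, 3 by DESeq2 and 1 by limma) and endothelial markers at 155 to 232 CPM (2 of 10, and 1 of 10 in 7 of the fits that left out 1 library). Erythrocyte genes summed to 43.6 to 395 CPM, with time means from 88.6 CPM at CT8 to 307 CPM at CT20 (0 of 5 called by edgeR, 1 unadjusted, 0 by DESeq2 and limma). The 12 heart muscle genes lay at 20.7 to 476 CPM (0 of 12 by edgeR, 2 unadjusted, 1 by DESeq2 and 0 by limma, and 2 by edgeR without the female library of CT4). The part of these sums in the rhythms above was not tested beyond the heart muscle term.

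The rhythm itself differed between diets for 2 of 15759 genes (0.0127%; 596 at an unadjusted p under 0.05, 7 by DESeq2), by the difference of the 24 h components in edgeR. Of the 2544 genes called on MCD, 1556 were also called on the control diet, which is 61.2% of the MCD calls and 65.4% of the 2378 control calls (15.1% of all genes). Of these 1556 genes, 1307 (84.0%) had an earlier fitted peak on MCD, with a median difference of -0.97 h, which is given as a description.

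Mat2a was the gene whose rhythm differed most between diets by its p. On the control diet its 18 libraries lay between 118 and 170 CPM and no rhythm was called (range 0.25 ± 0.07, adjusted p = 0.29). On MCD the CT16 and CT20 libraries lay at 234 to 366 CPM, above all 18 control libraries, while those of CT4 and CT8 lay at 98.7 to 136 CPM. The difference had an adjusted p of 2.55e-07 and held in each of 36 fits that left out 1 library (adjusted p up to 2.10e-06). Exons of Mat2a overlap Particl, a non-coding RNA on the other strand, in GENCODE M21, and whether counting used the strand is not given in the sources used here.

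Tsc22d3 was rhythmic on both diets, with a range of 1.54 ± 0.09 and a peak at CT10.1 ± 0.23 h on MCD and of 0.99 ± 0.15 and CT12.8 ± 0.57 h on the control diet (adjusted p of the difference 0.0377). At CT4 it was at 75.0, 57.4 and 71.0 CPM on MCD and 37.2, 38.9 and 41.5 CPM on control, and at CT8 at 79.9, 79.8 and 93.5 against 42.7, 56.4 and 60.6 CPM. The diets did not overlap at either time, but did at CT0, CT12, CT16 and CT20. The call was lost in 24 of 36 fits that left out 1 library, that without the MCD female of CT4 among them, with adjusted p up to 0.18. It was also lost in 8 of 14 other settings, with adjusted p up to 0.66.

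**Figure D5:**
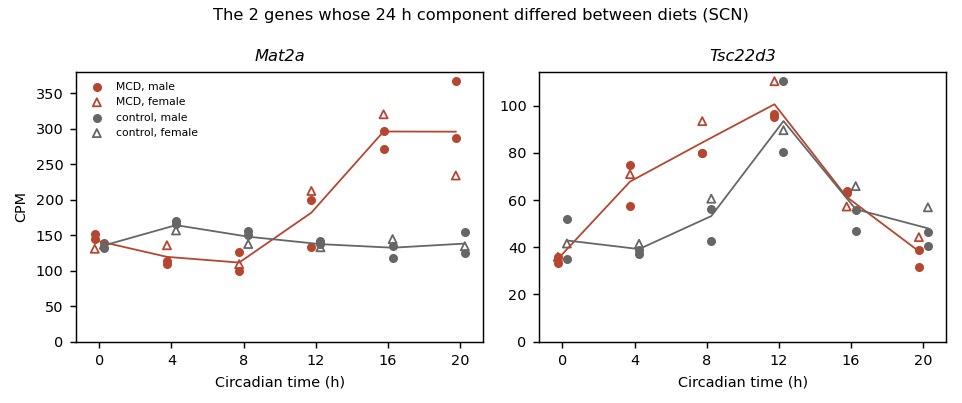
Level in CPM of Mat2a and Tsc22d3 against circadian time in hours in the 18 MCD (red) and 18 control (grey) SCN libraries; filled circles are males, open triangles females, and lines join time means. Mat2a reaches 366 CPM at CT20 on MCD and at most 170 CPM on control, and Tsc22d3 is higher on MCD at CT4 and CT8.

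Males and females on MCD differed in the 24 h component for 45 of 15759 genes (0.286%) by edgeR, where each time was represented by 1 female. There were 2617 genes at an unadjusted p under 0.05, 668 called by DESeq2 and 19 by limma. None of the clock genes was among the 45. The count rested on single libraries, from 6 without male 2 of CT16 to 145 without the female of CT8, and was 16 without the female of CT4. Penk, the enkephalin precursor of SCN neurons, was at 287, 146, 142, 88.1, 157 and 203 CPM in the females from CT0 to CT20 and between 104 and 220 CPM in the 12 males (adjusted p = 0.0182). The female values at CT0 and CT12 lay outside the range of the males.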

How the data were processed

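RNA of laser-cut SCN was measured by poly-A RNA-seq with a stranded kit, per the labels' protocols. The authors deposited 1 table of read counts per gene and library. The submitters' processing notes name Trimmomatic, HISAT2, StringTie, DESeq2 and the build GRCm39, without versions. How reads on overlapping genes were assigned, and whether counting used the strand, is not given in the sources used here. Of 199 named genes, 64 have an exon overlap with a gene on the other strand in GENCODE M21 and 11 on the same strand, and their counts may be shared. A protocol text speaks of male mice, while the sample labels name females, which were followed. No gene of the table had fewer than 1410 counts over the 36 SCN libraries, and filterByExpr (minimum count 10) removed none of the 15759.

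Counts were scaled by TMM in edgeR 4.0.16 (R 4.3.3) and fitted with 12 groups of diet and time and a sex term on all 36 SCN libraries, so that both diets share 1 estimate of the spread. The quasi-likelihood test was applied to the 24 h cosine and sine contrast of the MCD time means, to the remaining time components (departure) and to the difference between diets. The sex difference came from a separate fit on the 18 MCD libraries, with time groups, sex and the product of sex with the 24 h cosine and sine. All p-values were adjusted by Benjamini-Hochberg over all genes, with a threshold of 0.05. Range (2 times the amplitude) and peak time, with standard errors, came from least squares on log2 CPM (prior count 2) of the 18 MCD libraries with a sex term. Checks on simulated counts preceded the analysis.

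Genes were named by rule: the 4 of largest range per 4 h window among called genes of at least 1 CPM, all members of the clock lists, up to 4 called members of each other list (or its 2 most abundant), and the 5, 5 and 3 with the smallest p for rhythm, sex difference and departure, with those for the diet difference. A further 20 genes were chosen after their values were seen. The members and lists were chosen with earlier results of these data known.

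Alternatives were library totals, relative log expression scaling, no filter or 5 CPM, DESeq2 1.42.0, limma 3.58.1, no sex term, a replicate block, MCD libraries alone, 24 h terms fitted directly, a prior count of 0.5, and each library or replicate number left out. Added after seeing the data were thinning, leaving out the 3 libraries that stand apart, and a heart muscle term. Those 3 were the MCD female of CT4 and the control females of CT4 and CT20. In these control females 10.3% and 12.9% of genes lay more than 1 log2 unit from their median over the control libraries. Liver libraries were not analysed here. One member of the clock lists is counted but not reported here by name.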

Additional observations from a re-analysis of the deposited data

Results flagged for a closer look

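The 24 h component of Mat2a differed between the MCD and control diets by edgeR (adjusted p = 2.55e-07), with a range of 1.57 ± 0.16 against 0.25 ± 0.07 on the log2 scale (SE, n = 18 each). That of Tsc22d3 also differed (adjusted p = 0.0377), with a range of 1.54 ± 0.09 against 0.99 ± 0.15, and this call was lost in 24 of 36 fits that left out 1 library (adjusted p up to 0.18) and in 8 of 14 other settings (up to 0.66).

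Between females and males on MCD, 5 genes with the smallest p were taken for a closer look because the test of the difference in the 24 h component passed. Kdm5d, a Y-linked gene, differed with an adjusted p of 0.00829, and its values in females, which lack the gene, come from counts near 0. Penk differed with an adjusted p of 0.0182, with a fitted peak at CT8.11 in males and CT23.0 in females. Rictor, a subunit of the mTORC2 kinase complex, had the same adjusted p of 0.0182 and fitted peaks at CT7.06 in males and CT14.2 in females. Fam120c also had 0.0182, with peaks at CT7.60 and CT14.1. Without the female library of CT4 or of CT16, Rictor and Fam120c lost their calls (adjusted p up to 0.11 and 0.12). C030005K06Rik had an adjusted p of 0.0186, which rose to 0.0506 without male 1 of CT12. Without all libraries of replicate number 2 none of the 5 was called, with adjusted p of 0.40 for Kdm5d, 0.50 for Penk, 0.72 for Rictor, 0.35 for Fam120c and 0.65 for C030005K06Rik. Without those of number 1 only Penk was called (0.32 for Kdm5d, 0.62 for Rictor, 0.19 for Fam120c and 0.68 for C030005K06Rik). With limma the calls of Kdm5d (0.14) and C030005K06Rik (0.097) were lost.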

How the results depend on the processing

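The number of rhythmic genes on MCD was 1991 to 2911 over fits without 1 of the 36 libraries (lowest without male 1 of CT8, highest without control female of CT20). It was 775 to 1687 over fits without all libraries of 1 replicate number, each with fewer libraries left. The lowest count was that without number 2, and why was not tested. DESeq2 gave 3116 and limma 3016. The share of called genes peaking from CT12 to CT24 was 48.0% to 54.2% over left-out fits, 52.6% with a mean of at least 5 CPM and 52.7% with the heart muscle term. Departure from a 24 h curve gave 0 to 8 genes over left-out fits, 8 at 5 CPM or more, 36 by DESeq2 and 9 without the 3 libraries that stand apart, and the cause was not tested. For the diet difference, left-out fits gave 1 to 5 genes and DESeq2 gave 7. It gave 1 without the sex term, 1 without the 3 libraries that stand apart, 1 after thinning and 1 with the heart muscle term, and Mat2a was called in each of these. The sex difference gave 1 to 145 genes over left-out fits, 668 by DESeq2 and 19 by limma. Over the 7 settings in which it was counted, no shared called gene moved its peak by over 6 h. With DESeq2, limma and the heart muscle term no peak could move, because peak times came from the same least squares fit as in the main setting. The share of night peaks lay on either side of 50%. The 3 libraries per time and the spacing of 4 h limit the precision.

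Replicate numbers mark sex (1 and 2 male, 3 female) and no stated batch. Same-numbered libraries deviated from their group means with correlations of -0.101 to 0.211, over 0.1 in 13 of 45 pairs (mean 0.0492), against 5 of 90 pairs with different numbers (mean -0.0228). Not every pair was over 0.1, and the numbers were not taken as pairing. Pairs over 0.1 were more common among same-numbered libraries, and whether these share a component was not tested beyond the replicate block below. Sex was not removed from these deviations, so it also enters the correlations. With a replicate block in place of sex, on the 34 libraries with a number of their own, 2466 rhythmic genes and 1 diet difference were called, and Tsc22d3 was not (adjusted p of the difference 0.62).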
